A study of Rattus norvegicus with 6 samples.

Results

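Imprinted genes were followed through a comparison of DNA methylation in brain endothelial cells of chronically stressed and unstressed rats. The list held 48 genes of 19 imprinted domains, and its members were found by symbol in the authors' annotated table of differentially methylated regions (DMRs), each region being counted once by position and cytosine context. Of the 24862 regions in that table, 12262 were annotated to a gene and 62 to an imprinted gene, and 26 of the 48 genes had at least 1 region.

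The animals were adult male Sprague-Dawley rats per the study methods. The animals behind the 3 samples labelled CUMS went through 8 weeks of chronic unpredictable mild stress, a daily changing series of restraint, deprivation, cage tilt, wet bedding, cold swimming or continuous light. Those behind the 3 samples labelled Ctrl stayed in their home cages. The hippocampus was dissociated and endothelial cells were sorted as CD31+ CD45-, and since no expression was measured in these files, the sorted cell type could not be checked against its markers. The sample titles name no genetic change or agent for either group. The study methods mention saline gavage of control and experimental groups, and whether these animals received it is not given.

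An imprinted gene is expressed mainly from the copy inherited from one parent. The choice is set by an imprinting control region, a CpG-rich stretch that is methylated on the maternal or on the paternal copy and left unmethylated on the other, and that keeps this state in body cells through factors such as ZFP57, TRIM28 and DNMT1. A measurement that mixes both copies therefore reads an intermediate CG level at such a region, and several imprinted genes of the brain and placenta (Igf2, Grb10, Dlk1, Gnas) act in growth and metabolism. The 2 parental copies were not told apart in these data.

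Each level below is the share of methylated cytosines in a region, in percent, with 1 value for the 3 samples of a group together, as the authors deposited it. The deposited tables gave no value per sample, read count or p-value. The study states a sequencing coverage for the samples, but the reads behind the level of a region are unknown, so levels carry no error and the spread between samples cannot be compared with any difference. All comparisons are therefore descriptions of the listed regions. The list holds only regions that the authors called different between the groups, so an imprinted region with equal levels does not appear in it. Positions are those of the mRatBN7.2 assembly.

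Promoter sequences of 4 members whose CG regions were annotated to a promoter or transcription start are shown to give the CpG density of these starts, 3 of genes at intermediate level in Ctrl (Peg3, Mest, Sgce) and 1 of a gene at low level (Dlk1). They are the 300 bases around the start in the RefSeq table of the GRCr8 assembly, printed 5′ to 3′ on the gene's strand, with each CG dinucleotide in capitals. The windows lie at chr1:76130744-76131043 (plus strand, Peg3), chr4:60321564-60321863 (plus strand, Mest), chr4:33808739-33809038 (minus strand, Sgce) and chr6:134192347-134192646 (plus strand, Dlk1). The assemblies differ, so an overlap of these windows with the listed regions was not established.
Peg3: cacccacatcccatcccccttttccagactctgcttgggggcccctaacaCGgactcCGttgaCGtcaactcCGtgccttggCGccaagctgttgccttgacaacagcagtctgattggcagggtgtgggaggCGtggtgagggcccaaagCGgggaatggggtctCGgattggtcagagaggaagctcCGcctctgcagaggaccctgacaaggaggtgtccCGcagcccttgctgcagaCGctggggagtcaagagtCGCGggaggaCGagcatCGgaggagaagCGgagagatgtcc
Mest: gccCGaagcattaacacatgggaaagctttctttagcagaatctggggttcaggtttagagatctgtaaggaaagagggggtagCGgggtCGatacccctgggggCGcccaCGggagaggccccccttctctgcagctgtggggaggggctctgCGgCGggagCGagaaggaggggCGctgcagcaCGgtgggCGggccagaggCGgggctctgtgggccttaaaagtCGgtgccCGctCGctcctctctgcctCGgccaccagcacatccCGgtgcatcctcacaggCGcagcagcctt
Sgce: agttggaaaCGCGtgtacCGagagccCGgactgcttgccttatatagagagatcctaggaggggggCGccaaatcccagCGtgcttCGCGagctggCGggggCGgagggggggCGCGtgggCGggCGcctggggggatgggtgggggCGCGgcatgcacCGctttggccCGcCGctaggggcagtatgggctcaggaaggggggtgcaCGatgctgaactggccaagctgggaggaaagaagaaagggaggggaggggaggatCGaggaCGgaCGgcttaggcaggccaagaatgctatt
Dlk1: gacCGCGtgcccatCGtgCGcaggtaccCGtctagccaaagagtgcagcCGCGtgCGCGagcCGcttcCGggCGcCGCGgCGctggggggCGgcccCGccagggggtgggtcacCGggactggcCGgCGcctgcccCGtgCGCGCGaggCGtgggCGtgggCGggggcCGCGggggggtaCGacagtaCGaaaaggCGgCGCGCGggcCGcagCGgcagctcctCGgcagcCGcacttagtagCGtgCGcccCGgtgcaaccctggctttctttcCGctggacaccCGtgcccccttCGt

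The Peg3 window held 16 CG dinucleotides, that of Mest 18, that of Sgce 23 and that of Dlk1 45. Over the 42 windows of 36 matched members the median was 18.5, against 7 over all 33469 windows of the table. The letters TGCCGC, the core bound by ZFP57, were searched on both strands. They were found in the Sgce and Dlk1 windows, in 16 of 42 member windows (38.1%) and in 11.7% of all windows, with no match in the Peg3 and Mest windows. The letters contain a CG, and the member windows were richer in CG, so a match or its lack describes only the letters of these windows.

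Imprinted genes with a listed region were 25 of the 41 protein-coding members, beside 25.9% of 23154 protein-coding symbols with a region. Gene length was not matched between these counts. The symbols came from the RefSeq table of the GRCr8 assembly. A symbol that the region annotation does not name counted as without a region, which can lower either share. The 62 regions lay on 7 chromosomes and in 16 of the 19 domains. They comprised 39 CG regions in 22 members, 10 CHG regions and 13 CHH regions (H stands for A, C or T), and 4 members (Copg2, Igf2r, Trappc9, Zim1) had only CHG or CHH regions. No region was annotated to the other 22 members. These were Airn, Asb4, Calcr, Cd81, Cdkn1c, Commd1, H19, Kcnq1ot1, Magel2, Mcts2, Meg3, Mkrn3, Ndn, Nespas, Peg12, Peg13, Phlda2, Rasgrf1, Rtl1, Snurf, Tssc4 and Ube3a. They include several untranslated RNAs of imprinted domains (H19, Meg3, Airn, Kcnq1ot1, Nespas, Peg13), and the RefSeq gene table used for names had no entry for Airn, Kcnq1ot1, Nespas, Peg13 or, among members with a region, Zrsr1.

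CG methylation was higher in CUMS in 38 of the 39 CG regions of imprinted genes (97.4%), beside 87.7% of the 4028 CG regions annotated to any gene. The higher level in CUMS was thus shared with most CG regions of the list, while the starting level stood further apart. In Ctrl, 27 of 39 member regions (69.2%) lay between 35% and 65%, beside 12.0% of all CG regions of genes, and 28 (71.8%) lay in that window in either group, beside 24.8%. Of these 28, 9 were annotated to Gnas. Among the 1821 CG regions without a gene name, 50.7% lay in the window in either group. In 13 member regions (33.3%) both groups lay in the window, beside 115 (2.86%) of all CG regions of genes. The last member inside the window in Ctrl was a Peg3 region at 35.6% at its lower edge and a Ddc region at 62.7% at its upper edge, and the next ones outside were a Gnas region at 11.6% and a Plagl1 region at 69.0%. No member region thus had a Ctrl level between 11.6% and 35.6%.

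**Figure D1:**
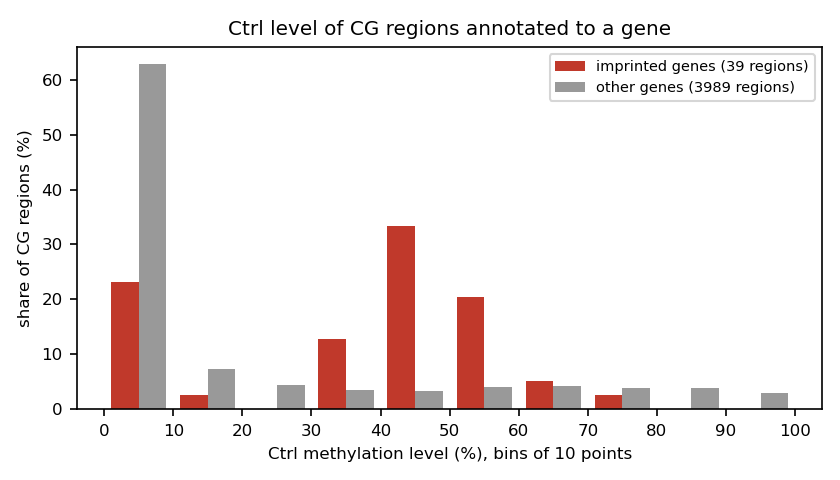
CG regions annotated to imprinted genes (39 regions, red) and to other genes (3989 regions, grey) by their level in Ctrl, in bins of 10 percentage points, as a share of the regions of each kind. Most regions of other genes lie below 10%, and most regions of imprinted genes lie between 30% and 60%.

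Of the 27 member regions in the window in Ctrl, 26 (96.3%) were higher in CUMS, beside 80.4% of the 484 such regions of all genes. In these 26 regions the Ctrl level ranged from 35.6% to 62.7% with a median of 46.0%, and the CUMS level from 54.7% to 78.0% with a median of 66.4%. All 26 lay above 50% in CUMS. In all genes, 389 regions were in the window in Ctrl and higher in CUMS, and 388 of these exceeded 50% in CUMS. In Ctrl, 18 of the 26 lay below 50%, beside 187 of the 389. In CUMS 12 of the 26 were still in the window, beside 90 of the 389. The other 14 had passed 65%, beside 299 of the 389. In the 26 member regions the difference had a median of 18.7 percentage points and quartiles of 17.0 and 20.2 points. Among all genes the 389 such regions had a median difference of 21.0 points with quartiles of 17.8 and 25.6 points, so the members had a lower median and closer quartiles.

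The member regions in the window in Ctrl were also longer and richer in cytosines. They held a median of 31 CG cytosines over 168 bp, beside 12 cytosines over 95 bp in all genes. A CpG island overlapped 17 of the 27 (63.0%), beside 17.6% of the 484 regions of all genes, while 8 lay in an island shore or shelf and 2 in open sea (outside islands and their flanks). The histogram of Ctrl levels and the plot of both levels show the separation from other genes along the Ctrl axis. Over all CG regions higher in CUMS, whatever their Ctrl level, the median difference was 17.5 points in members and 13.1 points in all genes.

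**Figure D2:**
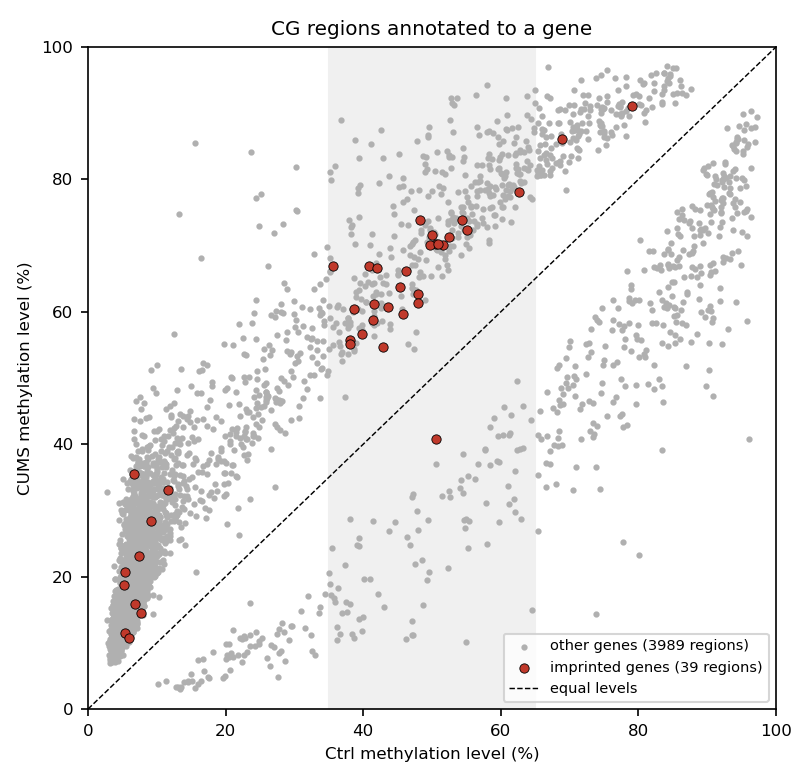
Level of each CG region annotated to a gene in Ctrl (x axis, %) and CUMS (y axis, %), with imprinted genes in red over other genes in grey, equal levels on the dashed line and 35 to 65% in Ctrl shaded. The red points above the line within the shaded band are the 26 member regions that were higher in CUMS, and the red point under the line is the Grb10 region at 50.5% in Ctrl and 40.8% in CUMS.

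The second kind of CG region started low. In 10 member regions the Ctrl level was between 5.29% and 11.6%, and all 10 were higher in CUMS, where they reached 10.7% to 35.5%. A CpG island overlapped all 10, beside 2669 of the 3037 regions of all genes that lay below the window in Ctrl. The median difference was 14.4 points, beside 11.5 points in those 3037 regions. The median ratio of CUMS to Ctrl was 2.98, beside 2.72. Of those 3037 regions 97.7% were higher in CUMS, so these 10 regions were close to other genes in direction and ratio. The 2 remaining member regions lay above the window in Ctrl.

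**Figure D3:**
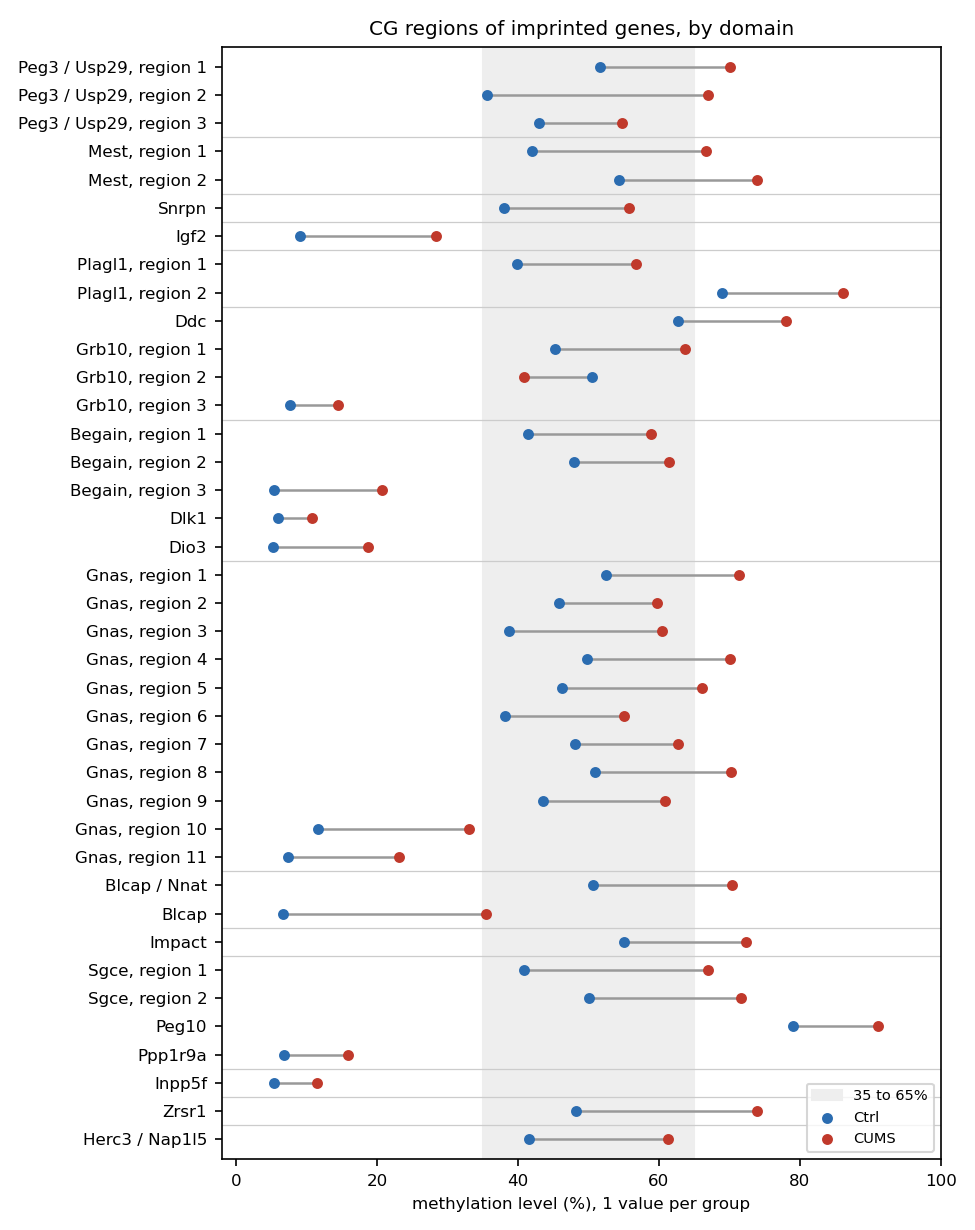
CG methylation level (x axis, %) of the 39 CG regions of imprinted genes in Ctrl (blue) and CUMS (red), 1 value per group with no error, ordered by imprinted domain, with 35 to 65% shaded. In 38 regions the red point lies to the right of the blue point, and the exception is the second region of Grb10.

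In the Peg3 domain, 3 CG regions were annotated both to Peg3, which encodes a zinc finger protein made from the paternal copy, and to Usp29, a gene of the ubiquitin protease family that is read in the opposite direction from the same start region. The first, at chr1:67097233-67097287 in an island shore with 11 cytosines, was at 70.0% in CUMS and 51.6% in Ctrl. The second, at chr1:67097712-67098114 over the transcription start with 55 cytosines, was at 67.0% in CUMS and 35.6% in Ctrl. Its difference of 31.3 points was the largest among the 39 CG regions of members. The third, at chr1:67098603-67098663 in the same 745 bp island with 15 cytosines, was at 54.7% in CUMS and 43.0% in Ctrl. Along this short stretch the 3 regions thus rose by unequal amounts from different Ctrl levels.

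Mest, a paternally expressed gene for a hydrolase-like protein, had 2 regions. The promoter region in the shore, at chr4:59353770-59353896 with 17 cytosines, was at 66.6% in CUMS and 42.0% in Ctrl. The region over the first exon and promoter, at chr4:59354553-59354785 in the island with 56 cytosines, was at 73.9% in CUMS and 54.3% in Ctrl. A further CG region that carried no gene name lay 1935 bp from the first of them, at chr4:59351733-59351835, with 54.5% in CUMS and 40.6% in Ctrl. All 3 were intermediate in Ctrl and higher in CUMS.

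Sgce, which encodes epsilon-sarcoglycan, and Peg10, a gene derived from a retrotransposon, are divergent neighbours that share a start region and are expressed from the paternal copy. The Sgce start at chr4:32842184-32842658 (63 cytosines) was at 66.9% in CUMS and 40.9% in Ctrl. Its promoter at chr4:32842806-32843310 (100 cytosines, 147 bp further on in the same island) was at 71.7% in CUMS and 50.1% in Ctrl. The Peg10 region, at chr4:32850189-32850586 in exon and intron with 75 cytosines, was at 91.1% in CUMS and 79.0% in Ctrl and was the most methylated CG region of any member in both groups. Ppp1r9a, the gene of the actin-binding protein neurabin in the same domain, had a promoter region at chr4:33022723-33022779 (19 cytosines) with 15.9% in CUMS and 6.86% in Ctrl. The domain thus held low, intermediate and high regions, and all 4 were higher in CUMS.

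Gnas encodes the stimulatory G protein alpha subunit in a locus with several alternative starts, some methylated on the maternal and some on the paternal copy. It had 12 regions, the most of any member, of which 11 were CG regions in a stretch of 48191 bp of chromosome 3. The first, at chr3:163072011-163072463 over a first exon in an island, had 86 cytosines and was at 71.4% in CUMS and 52.5% in Ctrl. A group of 6 regions followed 10189 bp further on. Of these, chr3:163082653-163082737 was at 59.7% in CUMS and 45.8% in Ctrl, chr3:163083812-163083986 at 60.5% and 38.7%, and chr3:163084042-163084184 at 70.1% and 49.7%. The other three were chr3:163086274-163086531 at 66.1% and 46.2%, chr3:163086789-163087071 at 55.1% and 38.1%, and chr3:163088136-163088236 at 62.7% and 48.0%. All 7 lay in the intermediate window in Ctrl and rose by 13.9 to 21.8 points.

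The last 4 Gnas regions lay in a single CpG island of 4051 bp at chr3:163116161-163120211. The region at chr3:163116338-163116992 with 129 cytosines was at 70.2% in CUMS and 50.9% in Ctrl, and it held the most cytosines of all 484 CG regions of genes in the window in Ctrl. The region at chr3:163117448-163117603 (36 cytosines) was at 60.8% in CUMS and 43.6% in Ctrl. Towards the other end of the island the levels were low, with 33.0% in CUMS and 11.6% in Ctrl at chr3:163119624-163119730 (29 cytosines) and 23.1% and 7.38% at chr3:163120066-163120201 (25 cytosines). A drop from intermediate to low level thus fell within 1 island, over 2020 bp between the second and the third of these regions, and it was present in both groups.

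**Figure D4:**
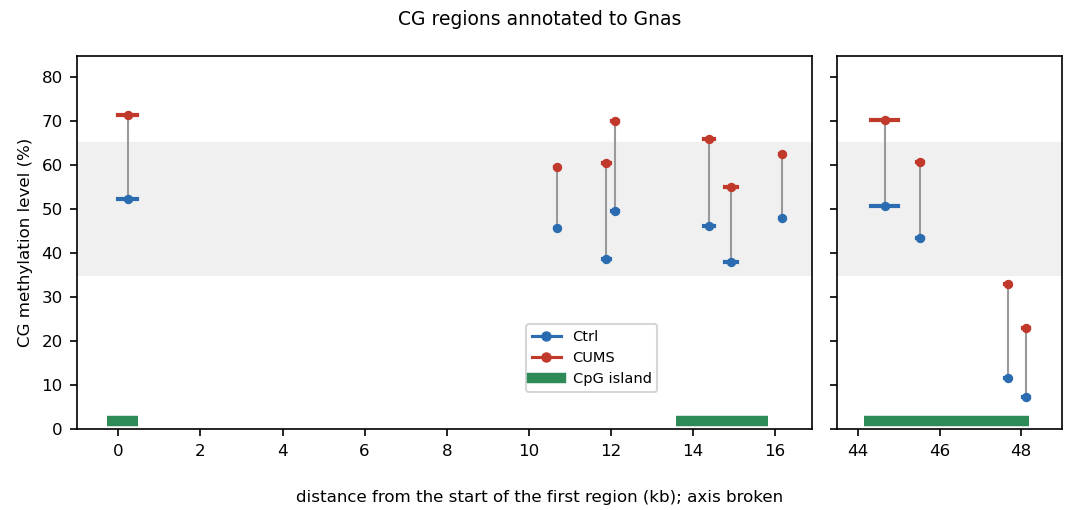
The 11 CG regions annotated to Gnas along the locus, with distance from the start of the first region in kb on a broken x axis and the CG level in % on the y axis for Ctrl (blue) and CUMS (red), 1 value per group. The shaded band is 35 to 65% and green bars are CpG islands, and in the right-hand island the first 2 regions are intermediate in Ctrl (50.9% and 43.6%) and the last 2 are low (11.6% and 7.38%).

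Grb10 encodes an adaptor that restrains signalling by insulin and IGF receptors, and it is expressed from different parental copies in neurons and in other tissues. Its intronic island at chr14:86589915-86590958 held 2 CG regions that moved in opposite directions. The larger, at chr14:86589884-86590356 with 109 cytosines, was at 63.8% in CUMS and 45.3% in Ctrl. The smaller, 191 bp further on at chr14:86590548-86590604 with 17 cytosines, was at 40.8% in CUMS and 50.5% in Ctrl and was the only CG region of an imprinted gene that was lower in CUMS. The Grb10 promoter region, at chr14:86602864-86602950 with 29 cytosines, was at 14.5% in CUMS and 7.72% in Ctrl. Ddc, the neighbouring gene for aromatic amino acid decarboxylase, had an intronic open-sea region with 9 cytosines at chr14:86455189-86455286, at 78.0% in CUMS and 62.7% in Ctrl.

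In the Dlk1-Dio3 domain the CG regions were of both kinds. Begain, a gene first known for its product's binding to a synaptic guanylate kinase, had 2 intermediate exonic regions in 1 island. They were at chr6:127945208-127945420 (47 cytosines) with 58.8% in CUMS and 41.4% in Ctrl, and at chr6:127945485-127945565 (21 cytosines) with 61.4% and 48.0%. A further Begain region, in an intronic island at chr6:127964745-127965108 with 89 cytosines, was low, at 20.7% in CUMS and 5.41% in Ctrl. Dlk1, the gene of a Notch-related membrane protein, was low at its promoter, with 10.7% in CUMS and 5.92% in Ctrl at chr6:128410113-128410199 (27 cytosines). Dio3, whose product inactivates thyroid hormone, had a low region with 18.7% in CUMS and 5.29% in Ctrl at chr6:129284492-129284789 (101 cytosines). This region was also annotated to Mir1247, and which gene its annotated start belongs to was not established. Meg3, the maternally expressed RNA between Dlk1 and Dio3, and Rtl1 had no region.

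Between Dlk1 and Dio3, 3 CG regions without a gene name lay within 100 kb of the Dlk1 region. An island region at chr6:128477986-128478061, 67787 bp away, was lower in CUMS at 46.5% against 67.0% in Ctrl. An adjoining pair of open-sea regions, at chr6:128493764-128493850 and chr6:128493904-128493963, were higher in CUMS at 72.9% against 57.9% and at 74.5% against 54.5%. Whether they belong to an imprinting control region of the domain could not be read from these tables.

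Among the remaining paternally expressed genes, Snrpn, which encodes a splicing protein of neurons, had 1 intronic region at chr1:111123118-111123285 (23 cytosines) at 55.7% in CUMS and 38.1% in Ctrl. The other 6 members of the Prader-Willi/Angelman domain had none. Plagl1, a zinc finger transcription factor gene, had an intermediate region at its first exon, chr1:7477194-7477330 (31 cytosines), at 56.7% in CUMS and 39.9% in Ctrl. A second Plagl1 region, at chr1:7512853-7513035 in an exon in open sea (14 cytosines), was at 86.1% in CUMS and 69.0% in Ctrl. Impact, whose product restrains the kinase GCN2, had an island region at chr18:4128384-4128627 (70 cytosines) at 72.3% in CUMS and 55.0% in Ctrl. All 4 of these regions were higher in CUMS by 16.8 to 17.6 points.

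Zrsr1, Nap1l5 and Nnat are paternally expressed genes reported to lie inside an intron of a larger gene, respectively Commd1, Herc3 and Blcap. The Zrsr1 island region, at chr14:96972752-96973156 with 57 cytosines, was at 73.9% in CUMS against 48.2% in Ctrl and was also annotated to an unnamed gene. It was not annotated to Commd1, and whether the unnamed gene is Commd1 was not established. The region annotated to Nap1l5 and Herc3, at chr4:88023958-88024106 with 18 cytosines, was at 61.2% in CUMS and 41.6% in Ctrl. The region annotated to Nnat and Blcap, at chr3:146227402-146227454 with 11 cytosines, was at 70.3% in CUMS and 50.6% in Ctrl. These 3 were intermediate in Ctrl, whereas a second Blcap region over an island edge, at chr3:146232426-146232507 with 9 cytosines, was at 35.5% in CUMS and 6.68% in Ctrl. It was the only member region that lay in the window in CUMS alone.

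Igf2, the paternally expressed fetal growth factor gene, was low at its start, with 28.4% in CUMS and 9.12% in Ctrl at chr1:197822868-197823053 (56 cytosines, in an island of 2999 bp). Inpp5f, the gene of a phosphoinositide phosphatase, was low at its first exon, with 11.5% in CUMS and 5.37% in Ctrl at chr1:183190692-183190766 (23 cytosines). H19, the maternally expressed RNA that shares a control region with Igf2, had no region. An open-sea CG region without a gene name, 85970 bp from the Igf2 region at chr1:197736789-197736898 (29 cytosines), was at 63.4% in CUMS and 47.9% in Ctrl. Of all 6 CG regions without a gene name within 100 kb of a member region, 5 were higher in CUMS, beside 63.2% of the 1821 CG regions of the table without a gene name, and 5 lay in the window in at least 1 group, beside 50.7%. With 6 regions, these counts are not set apart from those shares. The one outside the window was near Blcap, at 88.2% in CUMS and 71.7% in Ctrl.

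Methylation outside the CG context is low in most cell types, and the 23 CHG and CHH regions of imprinted genes followed this in 1 of the groups. The lower group was at or below 0.806% in every region, and the higher group ranged from 2.59% to 19.9%. Of the CHG regions 6 of 10 (60%) were higher in CUMS, beside 69.3% of those of all genes, and of the CHH regions 9 of 13 (69.2%), beside 77.5%. Thus both directions occurred and the shares were somewhat below those of all genes, by counts that a few regions would change. None lay near 50% in either group, 12 overlapped a repeat (no CG region of a member did), 17 lay at least partly in open sea and 20 in an intron. Shares of repeats, open sea and introns over the regions of all genes were not counted. These places therefore cannot be read as a trait of imprinted genes.

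**Figure D5:**
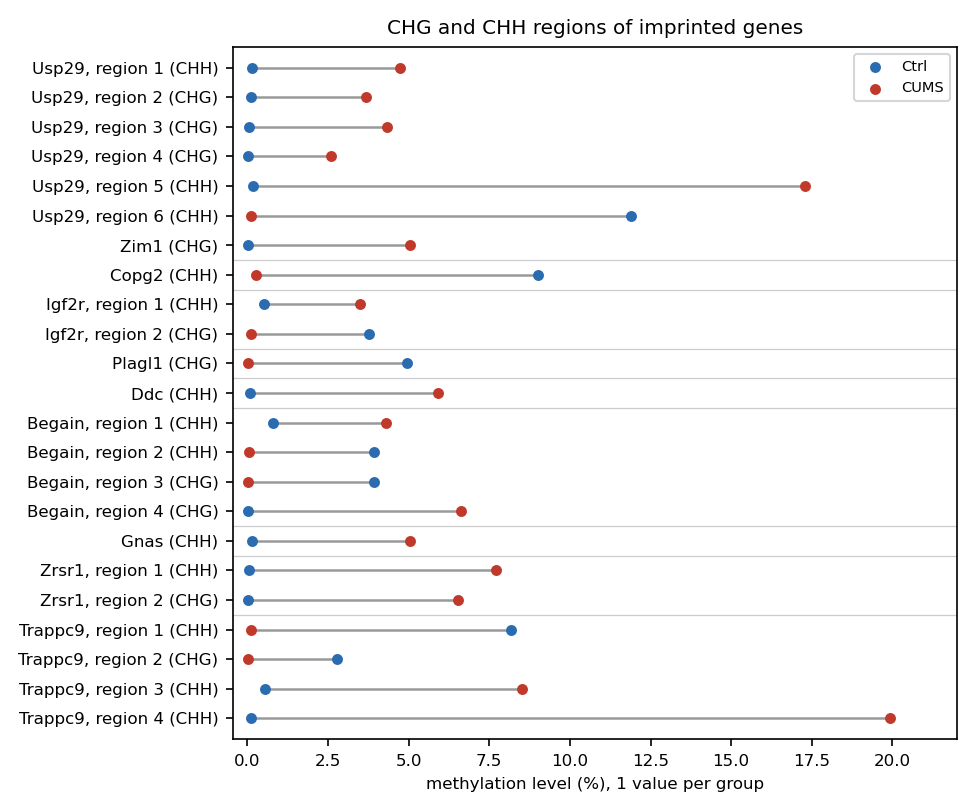
Methylation level (x axis, %) of the 23 CHG and CHH regions of imprinted genes in Ctrl (blue) and CUMS (red), 1 value per group with no error, ordered by domain. In each region 1 group lies below 1%, and the higher group is CUMS in 15 regions and Ctrl in 8.

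Trappc9, a trafficking complex gene whose intron holds the imprinted RNA Peg13, had 4 such regions and no CG region. Its CHH region at chr7:104979204-104979450 had the highest level of any non-CG region of a member, with 19.9% in CUMS and 0.11% in Ctrl. Of the 3 others, 1 rose by 7.98 points, 1 fell by 8.05 points and 1 fell by 2.77 points. Usp29 had 6, of which 5 were higher in CUMS. Its CHH region at chr1:67022960-67023180 was at 17.3% in CUMS and 0.17% in Ctrl, and the other 4 higher regions differed by 2.59 to 4.61 points. The lower region, CHH at chr1:67093829-67094208, was at 0.12% in CUMS and 11.9% in Ctrl, in the same gene as the CG regions that rose. Both genes thus held intronic CHH regions of both directions.

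Copg2, a coat protein gene beside Mest, had a single CHH region that was lower in CUMS, at 0.29% against 9.01% in Ctrl (chr4:59491268-59491534). Zim1, a maternally expressed zinc finger gene, had a single promoter CHG region at 5.03% in CUMS and 0.01% in Ctrl (chr1:67130556-67130624). Igf2r, the gene of the receptor that clears IGF2, had a CHG region at 0.13% in CUMS and 3.79% in Ctrl (chr1:48062813-48062934) and a CHH region that differed by 3.00 points the other way. These are the members, with Trappc9, that carried no CG region.

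In members with CG regions, Zrsr1 had a CHH region at 7.73% in CUMS and 0.05% in Ctrl (chr14:96976306-96976715), and a CHG region within it rose by 6.51 points. Ddc had a promoter CHH region at 5.91% in CUMS and 0.10% in Ctrl (chr14:86471026-86471313), and Gnas an intronic CHH region at 5.06% and 0.14% (chr3:163097291-163097571). Begain had 4 non-CG regions, 2 in each direction. The largest difference among them was in a CHG region at chr6:127964979-127965099, at 6.62% in CUMS and 0.02% in Ctrl, which lay within the low CG region that rose by 15.3 points. The Plagl1 promoter island held a CHG region that was lower in CUMS, at 0.03% against 4.94% in Ctrl (chr1:7476956-7477057), beside the CG region that was higher. Regions of different contexts overlapped in 4 places, in Usp29, Begain (at 2 places) and Zrsr1, and had the same direction in each.

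Other genes of imprinted domains, or reported as imprinted in some species, formed a second list of 42 genes, of which 14 had 59 regions, beside the 25.9% of protein-coding symbols with a region. The limits of that share given above hold for this list and the next. Of their 12 CG regions 10 were higher in CUMS, beside 87.7% of those of all genes. In either group 1 (8.33%) lay in the window, beside 24.8% of those of all genes and 28 of 39 in the members. That region was in an intron of Kcnq1, the potassium channel gene from within which the imprinted RNA Kcnq1ot1 arises, at chr1:198493530-198493750 (23 cytosines), with 62.2% in CUMS and 38.9% in Ctrl. Kcnq1ot1 itself and the other 4 members of its domain had no region. H13, listed in the table under its synonym Hm13, added an island region at its first exon at chr3:141163277-141163410 (34 cytosines), with 70.0% in CUMS and 53.0% in Ctrl, while Mcts2, a retrogene that in mouse lies inside it, had none. The non-CG regions of the second list were 18 higher and 6 lower in the CHG context, where 69.3% of those of all genes were higher, and 21 higher and 2 lower in the CHH context, where 77.5% were.

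Factors that set or keep imprints made up another list of 24 genes, of which 8 had 13 regions, beside the same 25.9% of protein-coding symbols. Of their 8 CG regions 7 were higher in CUMS and 2 lay in the window in either group, beside 87.7% and 24.8% of those of all genes. Trim28, the corepressor recruited by ZFP57, had a low region at 16.2% in CUMS and 6.60% in Ctrl. Tet3, which oxidises methylated cytosine, had a region at 41.0% in CUMS and 12.9% in Ctrl, and Ctcfl, a germ cell relative of CTCF, one at 57.5% and 37.8%. Kdm1b, a histone demethylase needed for imprints in oocytes, had the region that was lower, at 2.97% in CUMS and 13.4% in Ctrl. Zfp57, Dnmt1 and Uhrf1 had none.

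Over all genes the deposited profile gave a difference of the same sign, with a mean CG level of 74.4% in CUMS and 73.2% in Ctrl over gene bodies and of 45.2% and 41.8% over the upstream flank. The profile averages over all genes, whereas the listed regions were selected as different, so the sizes of their differences cannot be compared. How far the shift of the profile moves with the differences of the imprinted genes was not tested.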

How the data were processed

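Genomic DNA of sorted endothelial cells of rats (3 CUMS and 3 Ctrl samples) was treated with TET2 and APOBEC3A, which converts unmethylated cytosine, so that incomplete conversion raises every level. Per the study's methods and the submitters' processing notes, the authors trimmed reads with fastp (0.20.0), aligned them with Bismark (0.16.3) and Bowtie2 to mRatBN7.2, and called regions with DSS. The authors deposited each level as a fraction from 0 to 1, with 1 value per group combined from its samples, and it is given here in percent. The deposited columns of the difference and of areaStat, the region score of DSS, hold the authors' own comparison and were not used.

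Groups came from the sample titles. Regions annotated to a member were counted once by chromosome, start, end and context with Python (3.11.15) and pandas (2.3.3), by direction, CpG island and the window of 35% to 65%, beside the same counts over all regions annotated to a gene, members included. The window is a description and not a test. Each member is named, with every CG region and, for each member, the CHG or CHH region of largest difference. The tables hold no value per sample, so the permutation test that the design foresaw was replaced by counts and levels. The counting was tested on simulated regions. A filter of 10 percentage points, which the study's methods state but the list does not apply, other windows, region lengths, repeats and the full list of 160692 regions were tried as alternatives. Members and gene lists were chosen with earlier results of these data known. The study states a sequencing coverage for the samples, but the read depth behind each level is not in the tables, so its precision cannot be given. RefSeq tables of GRCr8 served for names, for promoter sequences and for the protein-coding symbols and members counted with and without a region.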

Additional observations from a re-analysis of the deposited data

Results flagged for a closer look

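The full list of regions held 116 regions between the first and the last listed region of a member, of which 54 were not in the reduced list that the annotation used. All 54 were CHH regions, 25 of them within the Trappc9 stretch of 440525 bp and 15 within the Usp29 stretch of 117081 bp. They were singled out because they lie in data that the comparisons above did not use. Of the 54, 32 (59.3%) were higher in CUMS, with medians of 3.19% in CUMS and 0.158% in Ctrl, and 22 were lower, with medians of 0.218% and 2.98%. The contexts and directions of the other full-list regions outside the reduced list were not counted. Whether the 54 differ from them is therefore not known. With no value per sample, the differences between the groups were not tested.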

How the results depend on the processing

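The 6 results were recomputed in 60 alternatives. The value stayed within 1.5 times (for the share of regions higher in CUMS, within its exact 95% binomial interval of 74.2% to 93.1%, which treats regions as independent) in 40, moved beyond it in 20 and reversed in 0. Only that share could reverse, since the other results are counts. The 62 regions of members became 37 at a difference of at least 10 percentage points, 9 at 20 points and 116 in the full list, and the 26 genes became 7 at 20 points. The 28 CG regions near 50% became 13 where both groups had to lie in the window and 8 at 20 points. The share higher in CUMS, 85.5% over all contexts, was 97.4% in CG, 60% in CHG and 69.2% in CHH regions, 97.3% at 10 points, 100% at 20 points and 73.3% in the full list. The 59 regions of the second list became 20, 3, 38 and 35, and the 13 of the third list 5, 1, 7 and 8, at 10 points, at 20 points, at 100 bp or more and outside repeats. These alternatives use fewer or more regions by construction. Counting the window in Ctrl only and adding nearby regions without a gene name were chosen after seeing the data. No paired analysis was possible because each group has a single deposited value, and for the same reason no replicate could be left out. The tables give no read depth per region, so levels from few cytosines, such as those of Ddc and Blcap with 9, cannot be weighted by reads.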
